A study of Mus musculus with 17 samples.

Results

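Mural cells are the contractile cells that wrap the endothelium of blood vessels, and 9 genes that mark them were followed here in every library. They were taken by gene name from the per-library tables of 78298 genes, and all 9 were found and passed the filter on low values. The pericyte members were Pdgfrb, Rgs5, Vtn and Abcc9, and the arterial muscle members were Acta2, Tagln and Myh11. Notch3 and Des, which pericytes and arterial muscle share, were kept apart from either set.

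The study sequenced poly(A) RNA of brainstem tissue labelled as locus coeruleus, from male C57BL/6 mice. In 5 libraries the mice had received vindeburnol, in 6 the derivative VB-127, and 6 libraries came from untreated controls. Each compound was given in water by gavage at 20 mg/kg once a day for 5 days, and tissue was collected 24 hours after treatment. Vindeburnol is a synthetic compound related to vincamine-type alkaloids, and the series asks which molecule it and its derivatives act on. No group is labelled as given gavage with water alone, so a compound and the gavage itself cannot be told apart in a comparison with controls. The labels give no age and do not tie libraries to single animals, so part of the spread between libraries may be technical.

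Pericytes sit on capillaries inside the basement membrane they share with the endothelium, while arterial smooth muscle forms closed rings around arterioles and sets their diameter. Endothelial cells attract both through the growth factor PDGF-B, which binds the receptor encoded by Pdgfrb, and Notch3 keeps arterial muscle mature. The contractile genes of smooth muscle, among them Acta2, Tagln and Myh11, are classic targets of serum response factor with its partner myocardin, which bind a short element called the CArG box. In brain tissue, pericyte genes report mainly on capillaries, and arterial muscle genes report on arterioles and on the vessels of the brain surface.

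The promoters of 4 genes, Acta2, Myl9, Rgs5 and Vtn, are shown because they differ in the element that serum response factor binds. Any part of this element in the values of these genes was not tested. The sequences are those of RefSeq on the mouse build GRCm38.p6, from 250 bases before to 50 bases after the start of each gene, while the expression values rest on GRCm39. Capitals mark matches to the CArG box with at most 1 mismatch in its core of A and T, and the element reads alike on both strands.
Acta2 (chr19:34255324-34255623, minus strand): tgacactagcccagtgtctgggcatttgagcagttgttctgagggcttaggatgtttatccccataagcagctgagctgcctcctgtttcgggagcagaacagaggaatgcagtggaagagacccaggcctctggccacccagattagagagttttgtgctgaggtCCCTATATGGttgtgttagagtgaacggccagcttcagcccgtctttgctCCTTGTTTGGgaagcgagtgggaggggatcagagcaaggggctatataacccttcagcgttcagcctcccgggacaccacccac
Myl9 (chr2:156775214-156775513, plus strand): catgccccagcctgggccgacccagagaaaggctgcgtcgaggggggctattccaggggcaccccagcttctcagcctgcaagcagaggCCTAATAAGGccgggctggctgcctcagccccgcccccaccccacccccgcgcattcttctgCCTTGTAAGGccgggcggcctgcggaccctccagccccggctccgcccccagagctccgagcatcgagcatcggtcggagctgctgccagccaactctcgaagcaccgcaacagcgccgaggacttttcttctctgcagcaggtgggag
Rgs5 (chr1:169655251-169655550, plus strand): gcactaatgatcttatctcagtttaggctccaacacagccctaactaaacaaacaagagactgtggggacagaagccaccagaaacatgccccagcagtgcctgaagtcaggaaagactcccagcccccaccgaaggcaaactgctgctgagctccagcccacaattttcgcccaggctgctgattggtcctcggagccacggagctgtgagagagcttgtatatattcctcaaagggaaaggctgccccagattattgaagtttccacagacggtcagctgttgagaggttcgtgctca
Vtn (chr11:78498870-78499169, plus strand): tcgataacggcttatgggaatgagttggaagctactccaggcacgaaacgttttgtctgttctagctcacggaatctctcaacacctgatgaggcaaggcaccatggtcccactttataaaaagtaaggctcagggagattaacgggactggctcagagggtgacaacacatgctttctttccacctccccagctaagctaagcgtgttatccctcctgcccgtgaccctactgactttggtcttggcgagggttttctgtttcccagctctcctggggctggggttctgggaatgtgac

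Acta2, the smooth muscle actin gene, holds 2 such matches, at bases -84 to -75 and -34 to -25 from its start. Myl9, which encodes the regulatory light chain of smooth muscle myosin and is not a member, holds an exact CArG box at -161 to -152 and a match with 1 mismatch at -99 to -90. No match was found in the windows of Rgs5 or Vtn. Of 32851 promoters of the same length, 9.98% hold such a match and 1.63% an exact box. Promoters of 6 of the 9 members were used, and a match was found in 1 of the 6, Acta2. Promoters of Pdgfrb, Tagln and Myh11 were not among those used, so Acta2 was the only arterial muscle member searched. Among other smooth muscle genes it was found in 2 of 12, Myl9 and Crip1, and among other pericyte genes in 1 of 8, Gper1. The letters GTGGGAA, a core site of the Notch partner RBPJ, were searched on both strands and found in 0 of the 6 members against 6.38% of all promoters. A match describes letters and does not show that a factor binds there.

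All values are TPM, which corrects for transcript length, so levels can be compared between genes. TPM keeps no read count and leaves the depth unknown. The libraries held 21016 to 26993 genes above 0. Control replicate 1 stood apart in neuronal genes, with the neuropeptide genes Ucn listed at 0 and Cartpt at 17.6 TPM, against 22.4 to 42.0 and 131 to 301 TPM in the other 16 libraries. For Slc6a3, which encodes a dopamine transporter, this control had 1.04 TPM, and the median of the other 16 was 45.6 TPM with a lowest value of 15.2 TPM. Of the genes that define noradrenergic neurons of the locus coeruleus, Dbh was at 18.9 TPM in control replicate 1 and at 0.290 TPM in control replicate 2. In the other 15 libraries Dbh had a median of 1.08 TPM, with the highest value, 12.3 TPM, in control replicate 6. Bc1, a short neuronal RNA, held 16.1% to 35.3% of the TPM of a library, with the highest share in control replicate 4. In that library the genes with the longest transcripts, the top 20% by length, had a median deviation from their mean over libraries of -0.50 on the log2(TPM + 1) scale, while the 20% with the shortest were at -0.10. In whole tissue, fewer cells of a type and less RNA per cell cannot be told apart.

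Vtn had the highest level of the 9 genes, with a mean of 82.9 TPM over the 17 libraries, and was above Rgs5, at 31.7 TPM, in 17 of 17 libraries. Acta2 followed at 18.4 TPM, Tagln at 11.6 TPM, Pdgfrb at 8.37 TPM and Notch3 at 5.88 TPM. Myh11 at 3.87 TPM, Abcc9 at 2.20 TPM and Des at 1.99 TPM were lowest. The order was steady for Rgs5 above Acta2, which held in 15 of 17 libraries, and for Pdgfrb above Notch3, which held in 16. Tagln was above Pdgfrb in 12 of 17 and Abcc9 above Des in 9 of 17, so these neighbours did not differ beyond their spread. The ranges of each pair of neighbours in this order overlapped.

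**Figure D1:**
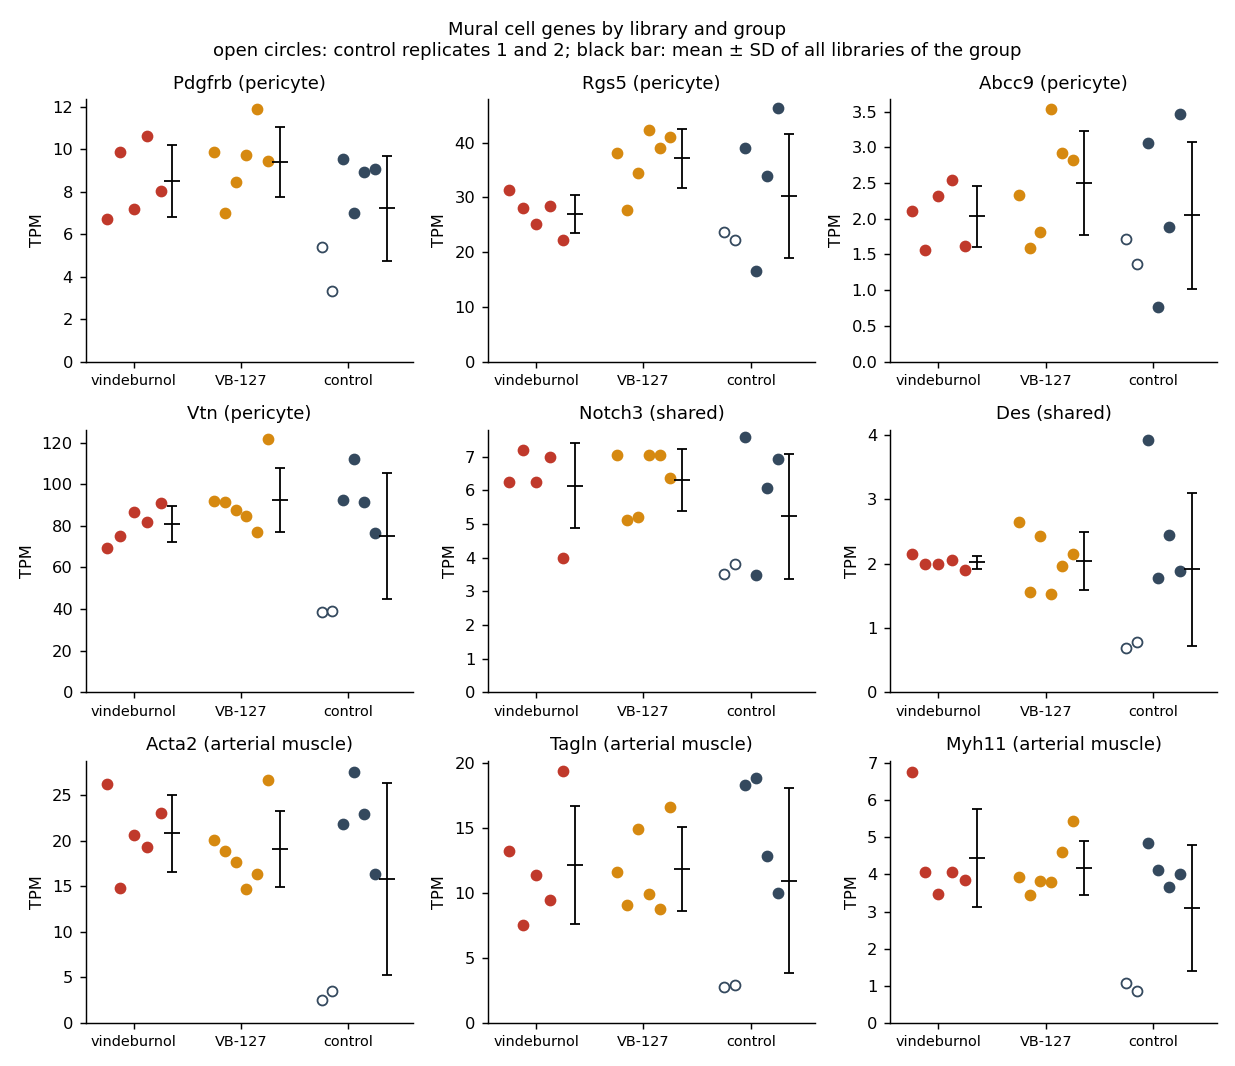
TPM of the 9 genes in each library of the vindeburnol, VB-127 and control groups, with the mean and SD of each group as a black bar. Open circles are control replicates 1 and 2, which lie below every other library for Pdgfrb, Vtn, Des, Acta2, Tagln and Myh11, with Acta2 at 2.55 and 3.45 TPM against 14.7 to 27.5 TPM in the other 15.

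Acta2 encodes the actin of the contractile filaments of arterial muscle. It was at 26.2, 14.8, 20.6, 19.3 and 23.0 TPM in the vindeburnol libraries. In VB-127 libraries its lowest, median and highest values were 14.7, 18.2 and 26.7 TPM, and in controls 2.55, 19.1 and 27.5 TPM. The groups overlapped, and the control group held the lowest and the highest library of the 17.

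Tagln encodes transgelin, an actin-binding protein of smooth muscle, and was at 13.2, 7.50, 11.4, 9.43 and 19.4 TPM in vindeburnol libraries. Its lowest, median and highest values were 8.78, 10.8 and 16.6 TPM in VB-127 libraries, and 2.79, 11.4 and 18.9 TPM in controls. The groups again overlapped. Myh11, the heavy chain of smooth muscle myosin, was at 6.78, 4.06, 3.47, 4.06 and 3.85 TPM in vindeburnol libraries. It was at 3.45, 3.88 and 5.43 TPM, lowest, median and highest, in VB-127 libraries, and at 0.852, 3.84 and 4.86 TPM in controls. Vindeburnol replicate 1 stood above all other libraries for Myh11, as 14.4% of all genes tested did in that library. It was the highest library for 1 of the 3 arterial muscle members and for 5 of 10 other smooth muscle genes tested, among them Cnn1 at 3.33 TPM and Pln at 4.43 TPM.

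Among the pericyte members, Pdgfrb is the receptor that draws pericytes to the vessel. It was at 6.74, 9.88, 7.18, 10.7 and 8.02 TPM in vindeburnol libraries. Its lowest, median and highest values were 6.99, 9.60 and 11.9 TPM in VB-127 libraries, and 3.33, 7.98 and 9.56 TPM in controls. The treated groups covered nearly the same range, and only controls fell below it.

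Rgs5, a regulator of G protein signalling and among the most abundant transcripts of brain pericytes, was at 31.3, 28.0, 25.2, 28.4 and 22.2 TPM in vindeburnol libraries. It was at 27.6, 38.6 and 42.3 TPM, lowest, median and highest, in VB-127 libraries, and at 16.5, 28.8 and 46.4 TPM in controls. Each vindeburnol library was below the VB-127 mean, and the 2 groups still overlapped through VB-127 replicate 2. Abcc9 encodes the sulphonylurea receptor subunit of the potassium channel that opens when ATP falls. It was at 2.11, 1.57, 2.33, 2.54 and 1.62 TPM in vindeburnol libraries. Its lowest, median and highest values were 1.59, 2.58 and 3.53 TPM in VB-127 libraries, and 0.769, 1.80 and 3.47 TPM in controls. The controls spanned 4.51-fold for Abcc9, the vindeburnol libraries 1.62-fold.

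Vtn encodes vitronectin, an adhesive protein of blood and extracellular matrix that brain pericytes make. It was at 69.5, 75.1, 86.7, 81.8 and 91.2 TPM in vindeburnol libraries. It was at 77.2, 89.5 and 122 TPM, lowest, median and highest, in VB-127 libraries, and at 38.7, 84.1 and 112 TPM in controls. Control replicates 1 and 2 were nearly equal for Vtn and far below the others.

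Of the shared genes, Notch3 was at 6.25, 7.22, 6.26, 7.00 and 4.00 TPM in vindeburnol libraries. Its lowest, median and highest values were 5.13, 6.71 and 7.07 TPM in VB-127 libraries and 3.49, 4.94 and 7.59 TPM in controls. Des, which encodes the intermediate filament desmin, was at 2.15, 1.99, 1.99, 2.06 and 1.90 TPM in vindeburnol libraries. It was at 1.53, 2.06 and 2.64 TPM in VB-127 libraries and at 0.684, 1.83 and 3.91 TPM in controls, again as lowest, median and highest. The vindeburnol libraries were the most even for Des, and the controls the least, with a 5.73-fold span.

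Control replicates 1 and 2 were low in the 3 arterial muscle members. Tagln was at 2.79 and 2.93 TPM in them against 7.50 to 19.4 TPM in the other 15 libraries, and Myh11 at 1.07 and 0.852 TPM against 3.45 to 6.78 TPM. Acta2 in these controls was at 12.7% and 17.2% of the median of the other 15. For 6 of the 9 members, both controls were below all other libraries, against 3.75% of the 16153 genes tested. The 6 were the 3 arterial muscle members with Des, Pdgfrb and Vtn. Rgs5, Abcc9 and Notch3 were instead lowest in control replicate 4, as were 35.7% of all genes tested. Control replicates 1 and 2 were singled out after the values were seen, so the count of members low in them is a description and not a test.

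The mean of control replicates 1 and 2 was 14.9% to 24.7% of the median of the other 15 for the arterial muscle members and 44.4% to 67.9% for the pericyte members. Over all genes tested with a median above 0 the median was 94.4%, and the 5th percentile was 50.7%. Other smooth muscle genes, from a list of 14 of which 10 were tested, had a median of 50.9% and a range of 26.3% to 130.3%, so they overlapped the pericyte members. No test was made of the difference between these gene groups. Myl9 was at 12.2 and 13.2 TPM against 22.9 to 36.4 TPM, and Tpm2, the beta tropomyosin gene, at 7.32 and 8.35 TPM against 10.5 to 19.7 TPM. In 5 of the 10 both controls were below all others, namely Myl9, Tpm2, Smtn, Pln and Casq2. Of the rest, Cnn1, Mylk, Ppp1r14a and Crip1 were below the other 15 libraries in only 1 of these controls, and Tpm1 in neither. Cnn1 was listed at 0 in control replicate 1 but was at 1.48 TPM in control replicate 2, against a median of 0.570 TPM in the other 15. Ppp1r14a in control replicate 2 was at 74.3 TPM, against a median of 73.1 TPM.

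Other pericyte genes had a median of 59.1% in these controls, and 3 of 12 were below all other libraries, Cspg4, Ndufa4l2 and Atp13a5. Basement membrane genes had a median of 57.1%, with 4 of 9 below all others, among them the perlecan gene Hspg2 at 0.911 and 0.832 TPM against 1.42 to 5.53 TPM. Endothelial genes had a median of 83.5%, with 0 of 13 below all others, and fibroblast genes one of 76.3%, with 0 of 8. The summed level of the 13 endothelial genes was 361 and 328 TPM in control replicates 1 and 2, against 339 to 503 TPM in the other 15. The markers of skeletal and heart muscle were within the range of the other libraries in sum. Ckm was listed at 0 in both controls and reached 0.139 TPM at most elsewhere, and the summed level of the 8 genes was 8.81 and 6.92 TPM against 4.53 to 9.64 TPM. Of the 4 arterial endothelium genes tested, 1 was below all others, Gja4 at 4.34 and 2.41 TPM against a lowest value of 4.38 TPM elsewhere. Of the 5 venous genes it was also 1, Vwf, which encodes von Willebrand factor, at 6.24 and 7.40 TPM against a lowest value of 8.21 TPM. The 2 controls differed in Dbh, Ucn, Cartpt and Slc6a3, of which replicate 2 had 0.290, 34.5, 214 and 39.7 TPM, and the part of this difference in the mural values was not tested.

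**Figure D2:**
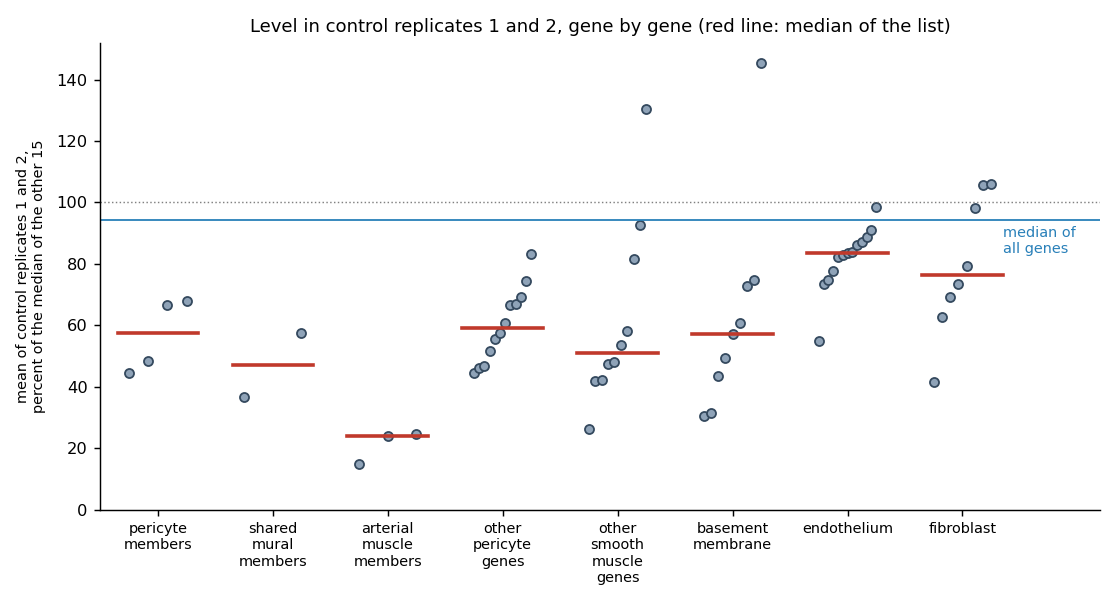
Level in control replicates 1 and 2, as their mean in percent of the median of the other 15 libraries, for each tested gene of 8 lists on the x axis. The red line is the median of a list, 23.9% for the arterial muscle members and 83.5% for endothelium, the blue line is the median of all genes at 94.4%, and the dotted line marks 100%.

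The balance of the 2 gene sets was described by a muscle level, the mean log2(TPM + 1) of Acta2, Tagln and Myh11, minus a pericyte level, the same mean of Pdgfrb, Rgs5, Vtn and Abcc9. The difference averaged -0.49 ± 0.35 in vindeburnol libraries (SD, n = 5), -0.79 ± 0.24 in VB-127 libraries (SD, n = 6) and -0.93 ± 0.76 in controls (SD, n = 6). It was -1.92 and -1.63 in control replicates 1 and 2 and 0.14 in control replicate 4, the only library in which the muscle level was above the pericyte level. Control replicate 4 also had the lowest level of long minus short transcripts, at -0.40 on the log2 scale. Pdgfrb, Rgs5, Abcc9 and Myh11 have longer transcripts than Vtn, Acta2 and Tagln. The part of transcript length in this balance was not tested. The control mean without replicates 1 and 2 was -0.51 ± 0.49 (SD, n = 4), so the groups overlapped with and without them. In summed TPM, the 3 muscle genes came to 0.0920 and 0.109 of the 4 pericyte genes in control replicates 1 and 2, and to 0.203 to 0.421 in the other 15. The pericyte sum of 109.6 to 123 TPM in the 5 vindeburnol libraries lay below that of each VB-127 library, at 128 to 175 TPM, with Vtn making up most of either. The pericyte levels on the log2 scale overlapped, at 3.91 to 4.15 in vindeburnol libraries and 3.94 to 4.41 in VB-127 libraries. None of the 4 pericyte genes separated these groups by itself, and the share of all genes that do so was not counted. The controls other than replicates 1 and 2, at 136 to 144 TPM, lay within the range of the VB-127 libraries. No test was made of these sums, since their members were chosen with the results known.

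**Figure D3:**
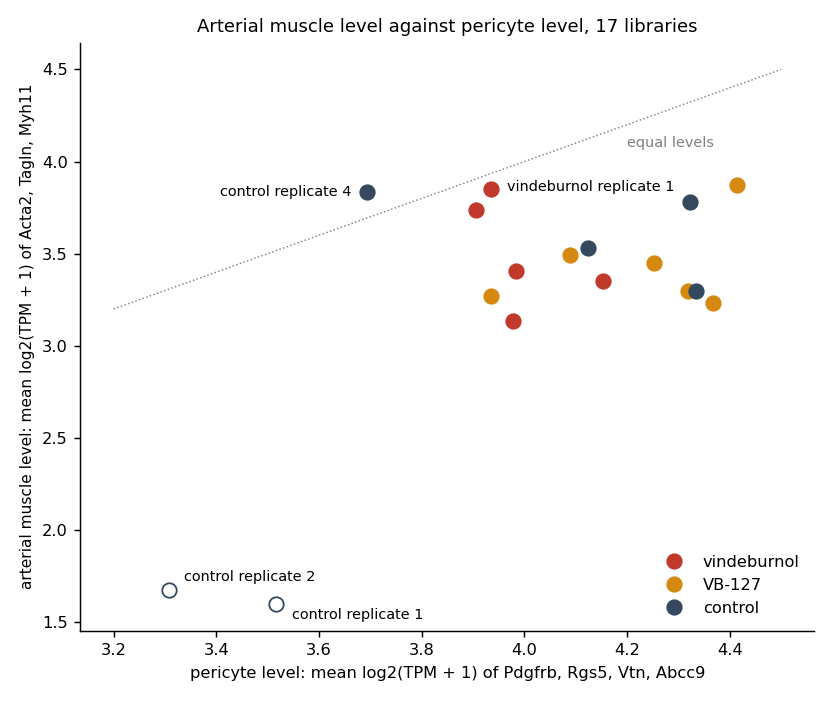
Muscle level (mean log2(TPM + 1) of Acta2, Tagln and Myh11, y axis) against pericyte level (mean of Pdgfrb, Rgs5, Vtn and Abcc9, x axis) in 17 libraries coloured by group, with a dotted line of equal levels. Control replicates 1 and 2, open circles, are low on both axes with muscle levels of 1.60 and 1.67, and control replicate 4 is the only library above the dotted line.

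None of the 9 genes passed the test in vindeburnol against control, in limma on log2(TPM + 1) with Benjamini-Hochberg adjustment over 16153 genes (adjusted p 0.617 to 0.968). In this comparison 0.0% of all genes were called, and 0 members had an unadjusted p under 0.05 against 8.17% of all genes. The largest value was that of Acta2, at 20.8 ± 4.25 TPM in vindeburnol libraries (SD, n = 5) and 15.8 ± 10.5 TPM in controls (SD, n = 6), a log2 difference of 0.75 with a standard error of 0.48. Myh11 had 0.52 ± 0.26 (SE) and Tagln 0.37 ± 0.41 (SE). The control mean of Myh11 was 4.16 TPM without control replicates 1 and 2, and 1 of 5 vindeburnol libraries was above it, with a log2 difference of 0.05. The values were positive for 8 of 9 members, as for 69.7% of all genes. Without control replicates 1 and 2 they were positive for 2 of 9, with Acta2 at -0.09, Tagln at -0.30 and Vtn at -0.20, none past the threshold. Rgs5, the member with a negative value in all 17 libraries, had a log2 difference of -0.09 (limma, adjusted p 0.935). It was at -0.24 without control replicates 1 and 2, and at -0.54 without control replicate 4 as well (limma, unadjusted p 0.0017, adjusted p 0.533). These are the controls lowest in Rgs5, at 23.8, 22.2 and 16.5 TPM. Leaving them out makes the difference more negative by their choice, so this p is no test of Rgs5.

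VB-127 against control gave the same picture. Of the 9 members 0 were called (adjusted p 0.494 to 0.793), against 0.00619% of all genes, which is 1 gene, and 0 members had an unadjusted p under 0.05 against 10.2% of all genes. Pdgfrb came nearest, with 9.41 ± 1.64 TPM in VB-127 libraries and 7.22 ± 2.46 TPM in controls (SD, n = 6 each), a log2 difference of 0.39 with a 95% interval of -0.01 to 0.79. Rgs5 had a log2 difference of 0.35 and Vtn one of 0.40. Without control replicates 1 and 2 these log2 differences were 0.10 for Pdgfrb, 0.20 for Rgs5 and -0.01 for Vtn, and 1 of 6 VB-127 libraries was above the Vtn mean of the remaining controls, 93.2 TPM. All 9 values were positive, as were 79.4% of those of all genes. Without control replicates 1 and 2 the count was 4 of 9, namely Pdgfrb, Rgs5, Abcc9 and Notch3, with 0 of the 3 arterial muscle members. Vindeburnol and VB-127 were compared with the same control libraries, so these comparisons share them.

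The 2 compounds were given at the same dose and times, and all 9 members were compared between them. Rgs5 averaged 27.0 ± 3.47 TPM in vindeburnol libraries (SD, n = 5) and 37.1 ± 5.37 TPM in VB-127 libraries (SD, n = 6), a log2 difference of -0.44 with a 95% interval of -0.85 to -0.03. Its unadjusted p of 0.036 did not hold after adjustment (limma, adjusted p 1.0), and 3.38% of all genes had an unadjusted p under 0.05. None of the 9 was called, against 0.0% of all genes. The intervals for the arterial muscle genes were wide, at -0.89 to 1.13 for Acta2, -0.85 to 0.87 for Tagln and -0.50 to 0.60 for Myh11. Without control replicates 1 and 2, which enter through the shared spread, the Acta2 interval was -0.22 to 0.46, around the same difference of 0.12. Pdgfrb had an interval of -0.55 to 0.28, Vtn of -0.67 to 0.30, Abcc9 of -0.64 to 0.26, Notch3 of -0.44 to 0.35 and Des of -0.46 to 0.46. These intervals leave room for differences of either sign.

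**Figure D4:**
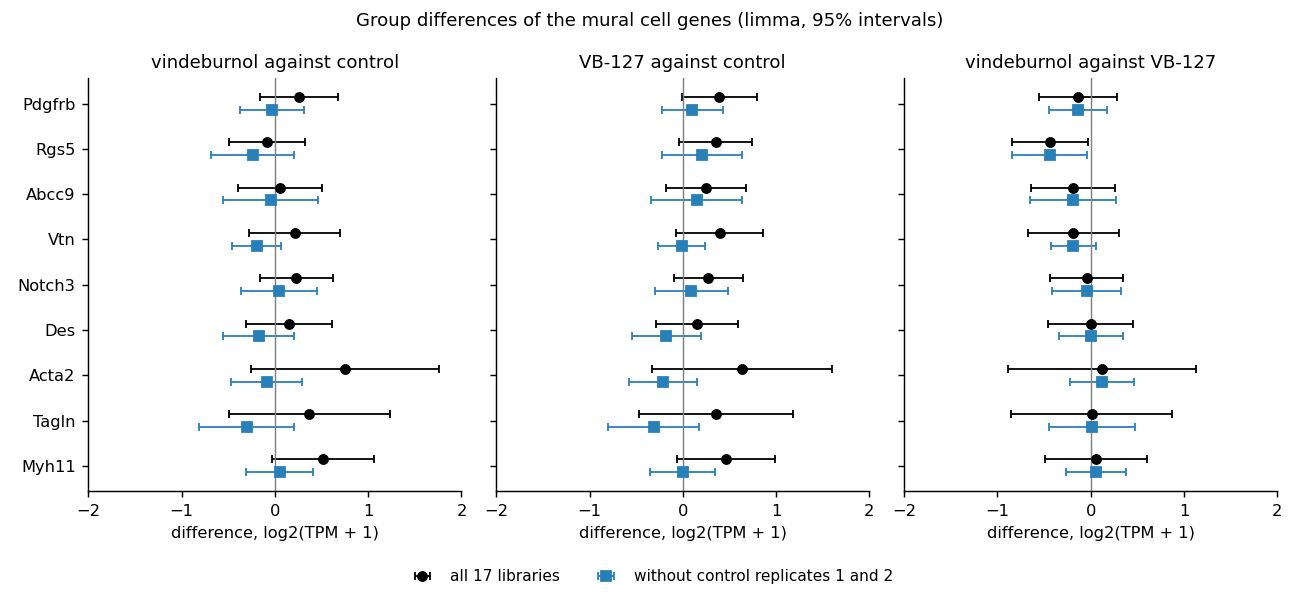
Difference of each gene in log2(TPM + 1), x axis, in 3 comparisons, with 95% intervals from limma, in all 17 libraries (circles) and without control replicates 1 and 2 (squares). Acta2 in vindeburnol against control is at 0.75 with all libraries and at -0.09 without these controls, and Rgs5 in vindeburnol against VB-127 is the only member whose interval stays on one side of 0, at -0.85 to -0.03.

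Pericyte genes outside the members leaned the same way between the compounds. All 4 pericyte members and 12 of 12 other pericyte genes had lower values in vindeburnol than in VB-127 libraries, with medians of -0.19 and -0.20 on the log2 scale against -0.03 over all genes, of which 38.9% were above 0. None was called, and 0 of the 12 had an unadjusted p under 0.05. Kcnj8, the pore subunit that pairs with the Abcc9 protein in pericytes, averaged 2.80 ± 0.67 TPM in vindeburnol libraries and 3.76 ± 0.86 TPM in VB-127 libraries. Other smooth muscle genes had a median of 0.00, with 7 of 10 higher in value. The 1 with an unadjusted p under 0.05 was Ppp1r14a, an inhibitor of myosin phosphatase, at 67.0 ± 8.87 TPM in vindeburnol libraries and 80.8 ± 8.75 TPM in VB-127 libraries. Endothelial genes lay lower too, in 11 of 13 with a median of -0.24. Of these 11, 6 had an unadjusted p under 0.05, as had 1 of the 2 higher in value, beside 3.38% of all genes. Tek, the receptor of the angiopoietins, was at -0.60 ± 0.18 (SE). With the endothelial level of each library as a covariate the Rgs5 difference was -0.06, against -0.44 without it.

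Of the pathways around the members, 0 genes were called in any comparison. Over all genes, an unadjusted p under 0.05 was found for 8.17% in vindeburnol against control, 10.2% in VB-127 against control and 3.38% in vindeburnol against VB-127, and positive values for 69.7%, 79.4% and 38.9%. Among PDGF ligands and the sister receptor Pdgfra, 3 of 5 were higher in value in vindeburnol against control, 3 of 5 in VB-127 against control and 1 of 5 in vindeburnol against VB-127, none at an unadjusted p under 0.05. Pdgfb, the endothelial ligand of the Pdgfrb receptor, averaged 7.47 ± 2.00 TPM in vindeburnol libraries and 8.21 ± 1.46 TPM in VB-127 libraries. Of 12 Notch genes, 11 had lower values in vindeburnol than in VB-127 libraries, and 2 of them had an unadjusted p under 0.05. They were Heyl, a Notch target of mural cells, at 4.48 ± 1.39 against 6.00 ± 0.94 TPM, and Dll4, the arterial ligand, at 0.966 ± 0.315 against 1.46 ± 0.247 TPM. In VB-127 against control 1 of the 12 was at that level, Notch1, at 5.90 ± 0.56 TPM in VB-127 libraries and 4.53 ± 1.52 TPM in controls, a log2 difference of 0.36 (limma, unadjusted p 0.030, adjusted p 0.470), and of 0.23 without control replicates 1 and 2. The transcription factors Srf, Mrtfa and Mrtfb were tested and had no unadjusted p under 0.05, and 1 of the 4 genes on that list, Myocd, did not pass the filter on low values. Of the receptors of vitronectin, Itgav, Itgb5 and Itgb1 were tested, and 0 had an unadjusted p under 0.05 in any comparison. Basement membrane genes had 1 of 9 at that level in vindeburnol against control, Col4a2 at 11.1 ± 1.68 against 8.45 ± 3.47 TPM, and 2 of 9 in VB-127 against control, Lama5 and Lama4. With all libraries these log2 differences were 0.44 for Col4a2, 0.67 for Lama5 and 0.37 for Lama4. Without control replicates 1 and 2 they were 0.16, 0.39 and 0.32. In vindeburnol against VB-127, 1 of the 9 basement membrane genes was at that level, Nid2, at 0.755 ± 0.390 against 1.66 ± 0.757 TPM.

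Vindeburnol against control had 1 of 12 other pericyte genes at an unadjusted p under 0.05, beside 8.17% of all genes, namely Atp13a5 at 4.17 ± 0.80 against 3.07 ± 1.04 TPM. Its log2 difference was 0.37, and 0.16 without control replicates 1 and 2. VB-127 against control had 5 of 12, all higher, beside 10.2% of all genes at that level and 79.4% with a positive value, led by Gper1 at 3.01 ± 0.83 against 1.71 ± 0.40 TPM and Cox4i2 at 8.27 ± 1.26 against 5.48 ± 1.72 TPM. None was called (limma, adjusted p 0.461 for Gper1 and 0.470 for Cox4i2). Without control replicates 1 and 2 the log2 differences of these 2 genes were 0.47 and 0.43, against 0.55 and 0.56 with them. Of the 10 other smooth muscle genes 0 had an unadjusted p under 0.05 against controls, for either compound. In the potassium channel to which the Abcc9 protein belongs, Kcnj8 had 2.80 ± 0.67 TPM in vindeburnol libraries and 3.41 ± 0.59 TPM in controls. Kcnj11 and Abcc8, the subunits that neurons use, had unadjusted p under 0.05 in VB-127 against control, with Kcnj11 at 21.5 ± 2.29 against 18.1 ± 3.11 TPM. Both were lowest of all in control replicates 1 and 2, and without these the log2 differences were 0.14 and 0.15, against 0.25 and 0.29 with them.

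Relations between members were computed without control replicates 1 and 2, which form a cluster of their own. Of 36 pairs of members, 4 had an adjusted p under 0.05 for Pearson's r in a two-sided permutation test over the 15 libraries. Rgs5 and Abcc9 had an r of 0.868 and a Spearman rho of 0.850 (adjusted p 0.00288 for r and 0.00504 for rho), and r was 0.737 without the 2 libraries farthest from the median of Rgs5. Acta2 and Tagln had an r of 0.765 and a rho of 0.779 (permutation test, adjusted p 0.0125 for r and 0.0142 for rho), and r was 0.722 without the 2 farthest libraries.

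Abcc9 and Notch3 had an r of 0.797 and a rho of 0.636 (permutation test, adjusted p 0.00342 for r and 0.110 for rho), and r was 0.635 without the 2 farthest. Rgs5 and Notch3 had an r of 0.776 and a rho of 0.600 (permutation test, adjusted p 0.0124 for r and 0.142 for rho), but r was 0.373 without control replicate 4 and vindeburnol replicate 5, so that relation rests on those libraries. With the group means taken off, the r of the 4 pairs was 0.759 to 0.895. Vtn passed the threshold with no other member. It had an r of 0.62 with Tagln and 0.56 with Acta2 (permutation test, adjusted p 0.0736 and 0.0962), and without VB-127 replicate 6 and control replicate 4 these were 0.461 and 0.192, so the relation with Acta2 rests on those libraries. With Rgs5 its r was -0.22, and 0.216 without vindeburnol replicate 5 and control replicate 4. With Abcc9 it was -0.28, and -0.167 without the 2 farthest, and none of the 4 was past the threshold after adjustment. Pdgfrb had an r of 0.646 and a rho of 0.779 with Notch3 (permutation test, adjusted p 0.0553 for r and 0.0142 for rho).

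**Figure D5:**
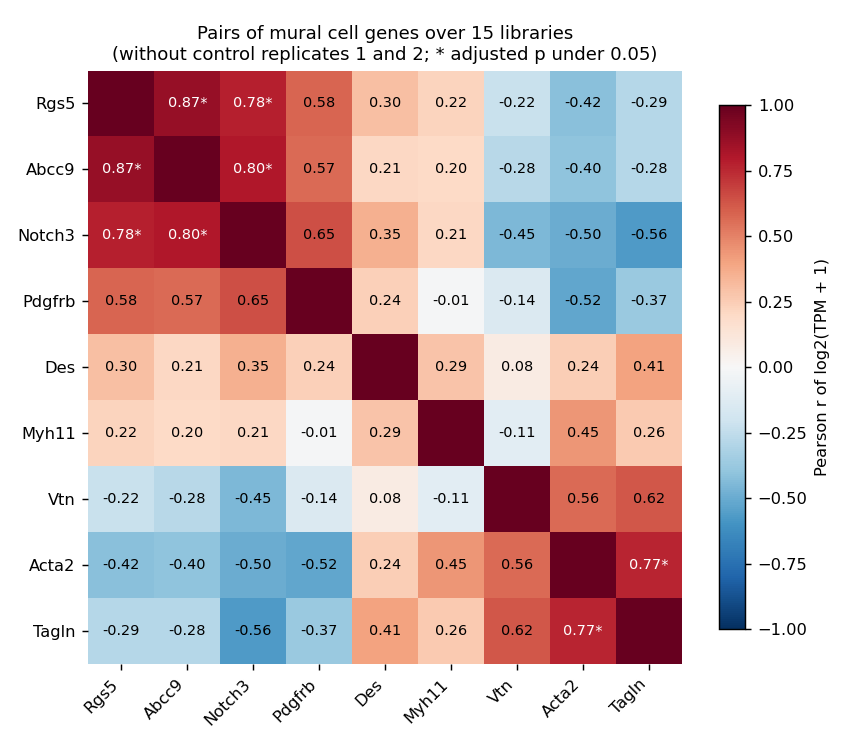
Pearson r of log2(TPM + 1) between members over 15 libraries, without control replicates 1 and 2, as colour and number, with an asterisk at an adjusted p under 0.05. Rgs5, Abcc9, Notch3 and Pdgfrb have r of 0.57 to 0.87 with each other, of which 3 pairs carry an asterisk, and Acta2 and Tagln have 0.77.

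Rgs5, Abcc9, Notch3 and Pdgfrb moved with measures of the libraries. Each member was set against 4 measures, 36 relations in all, over the same 15 libraries. The difference between long and short transcripts had an r of 0.751 with Rgs5, 0.799 with Abcc9 and 0.822 with Notch3 (two-sided permutation test, adjusted p 0.0103, 0.00372 and 0.00372), and a rho of 0.739, 0.686 and 0.739. Without the 2 farthest libraries, one of them control replicate 4, r was 0.572, 0.620 and 0.672. The longest transcripts of these genes in the annotation used have 4096, 7499 and 8016 bases, against 1744 for Vtn, 2035 for Acta2 and 1595 for Tagln. With the same measure Vtn, Acta2 and Tagln had an r of -0.48, -0.47 and -0.40 (permutation test, adjusted p 0.126, 0.129 and 0.211). Pdgfrb, of 5423 bases, had an r of 0.625 with that measure, and 0.431 without the 2 farthest libraries. The Bc1 share had an r of -0.735 with Rgs5, -0.680 with Abcc9, -0.772 with Notch3 and -0.715 with Pdgfrb (permutation test, adjusted p 0.0110, 0.0186, 0.0110 and 0.0127). Its rho was -0.539, -0.429, -0.625 and -0.718 in the same order (permutation test, adjusted p 0.0806, 0.187, 0.0564 and 0.0259). Without vindeburnol replicate 3 and control replicate 4, r was -0.437 with Rgs5, -0.522 with Abcc9, -0.703 with Notch3 and -0.604 with Pdgfrb. Myh11, a muscle gene of 6549 bases, had an r of 0.45 with Acta2 and 0.26 with Tagln, and 0.22 with Rgs5. With the difference between long and short transcripts its r was 0.47 (permutation test, adjusted p 0.126). The part of transcript length in the relations between members was not tested.

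Rgs5 followed the endothelial genes most closely, with an r of 0.828 and a rho of 0.918 with the mean level of 13 endothelial genes over 15 libraries, and 0.850 without the 2 farthest (permutation test, adjusted p 0.00372 for r and 0.00072 for rho). Pdgfrb had an r of 0.690 and Abcc9 one of 0.638 with that level, and Acta2 one of -0.35. Tagln followed the fibroblast genes, with an r of 0.695, a rho of 0.646 and an r of 0.609 without the 2 farthest (permutation test, adjusted p 0.0185 for r and 0.0564 for rho). Myh11 had an r of 0.619 with the fibroblast level, which was 0.461 without VB-127 replicate 6 and control replicate 3. Fibroblasts of the brain coverings lie beside the arteries of the surface, and the summed fibroblast level was 37.3 to 66.9 TPM in vindeburnol libraries, 45.2 to 107 TPM in VB-127 libraries and 35.1 to 75.1 TPM in controls.

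The genes most like the arterial muscle members over all 17 libraries were Myl9, with an r of 0.96 to the mean standardized level of Acta2, Tagln and Myh11, then Tns2, Tpm2, Gm44562, 1700029K24Rik and Clasrp, with r of 0.85 to 0.89. All 6 were lower in control replicates 1 and 2 than in any other library. They were chosen by likeness over libraries that include these 2, in which the arterial muscle members were lowest. Their low values there thus follow in large part from the choice and add no separate support. Over the other 15 libraries the list was Slc6a20a at 0.87, Slc6a13 at 0.87, a gene without a symbol, Aldh1a2, Serping1 and Dcn at 0.77. Slc6a13 and Dcn stand on the fibroblast list. The genes most like the pericyte members over 17 libraries were Myh9 at 0.91, Gm17276, Abca2, Ptpn23, Hapln2 and Cntn2 at 0.88. Over the other 15 they were Pogk at 0.91, Ralgapa1, Chml, Plcxd3, Sike1 and Camk4 at 0.88. No gene of the pericyte or endothelial lists was among these, and the likeness is a description over libraries that share composition.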

How the data were processed

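The 17 libraries were made from poly(A) RNA with a directional kit, per the labels' protocols. STAR and Salmon with GRCm39 are named in the submitters' processing notes. Versions, and any use of strand in counting, are not given in the sources used here. The authors deposited TPM for 78298 genes per library. A whole-series table of the same kind was not used here.

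The members, lists, tests and the rule for named genes were chosen with earlier results of these data known. The analysis used log2(TPM + 1), a pseudocount of 1, which understates fold changes of low genes. Genes at 1 TPM or more in at least 5 libraries, 16153 in all, were fitted in limma 3.58.1 under R 4.3.3 (robust eBayes with a trend), with group as sole term. P-values were two-sided and adjusted by Benjamini-Hochberg over these genes, and called under 0.05. The 95% intervals are unadjusted. The fit was tested on simulated data. Pairs of members were compared by permutation with 100000 resamples and adjusted over 36 pairs. TPM carries no depth, so no counting interval is given and precision rests on the spread between libraries.

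Named genes were the 9 members, the up to 2 genes of each list with the smallest p in a comparison, and the 6 genes most like each member set at a mean of at least 2 TPM. Likeness over 15 libraries was added after the data were seen. Cspg4, Ndufa4l2, Smtn, Pln, Casq2, Cnn1, Mylk, Tpm1, Hspg2, Ckm, Gja4, Vwf, Ucn, Cartpt and Slc6a3 were named after their values were seen. Transcript lengths come from GENCODE M21, which gave one for 94.7% of tested genes, and promoters from RefSeq on GRCm38.p6. Alternatives changed the pseudocount, filter, scaling, weights, moderation, groups fitted, block, covariates and libraries. Leaving out control replicates 1 and 2, or 1, 2 and 4, and the length covariate were chosen after the data were seen.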

Additional observations from a re-analysis of the deposited data

Results flagged for a closer look

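Of 30 groups of values examined for a library far from the rest of its group, 2 stood out, and chance alone gives about 1 in 20. Vtn in VB-127 replicate 6, at 122 TPM, was far above the other 5 VB-127 libraries, the next of which was at 92.1 TPM. Fibroblast genes summed to their highest level of all libraries, 107 TPM, in VB-127 replicate 6. Myh11 in vindeburnol replicate 1, at 6.78 TPM, was far above the other 4 vindeburnol libraries, at 3.47 to 4.06 TPM. In that library Dcn was at 26.9 TPM, the highest of all 17. Vindeburnol replicate 1 was the highest library for 2 of the 8 fibroblast genes tested and for 14.4% of all genes tested. The part of these other genes in the 2 values was not tested.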

How the results depend on the processing

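No member was called in any comparison under the settings run. Control replicates 1 and 2 decided most directions against controls, and in each change of sign named here the adjusted p stayed above the threshold (limma). With these 2 left out, vindeburnol against control had log2 differences of -0.032 for Pdgfrb, -0.196 for Vtn, -0.044 for Abcc9, -0.176 for Des, -0.088 for Acta2 and -0.303 for Tagln, and VB-127 against control had -0.012 for Vtn, -0.176 for Des, -0.208 for Acta2, -0.314 for Tagln and -0.0020 for Myh11. With control replicate 4 left out as well, the values were -0.119 for Pdgfrb, -0.104 for Vtn, -0.314 for Abcc9, -0.156 for Notch3, -0.275 for Des and -0.184 for Tagln in vindeburnol against control. In VB-127 against control they were then -0.099 for Rgs5, -0.122 for Abcc9, -0.111 for Notch3, -0.275 for Des, -0.100 for Acta2, -0.196 for Tagln and -0.0053 for Myh11.

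With the endothelial level as a covariate, Rgs5 was at 0.114 in vindeburnol against control, and in vindeburnol against VB-127 Pdgfrb was at 0.190, Abcc9 at 0.118, Notch3 at 0.269 and Des at 0.259. Abcc9 in vindeburnol against control was at -0.061 with library weights and -0.053 with the transcript length covariate. In vindeburnol against VB-127, Myh11 was at -0.041 with library weights and Notch3 at 0.0098 after quantile normalization. Des, at -0.00024 in that comparison, was at 0.0075 and 0.0028 with pseudocounts of 0.1 and 0.5, 0.026 with median-ratio scaling, 0.054 after quantile normalization, 0.0069 without Bc1 and 0.00067 with the length covariate. Leaving out 1 library at a time gave -0.091 to 0.177 for Abcc9 and -0.237 to 0.050 for Rgs5 in vindeburnol against control. In vindeburnol against VB-127 it gave -0.101 to 0.078 for Notch3, -0.051 to 0.054 for Des, -0.162 to 0.153 for Tagln and -0.082 to 0.119 for Myh11. The cause of these changes was not tested beyond the libraries named.

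Over all genes, vindeburnol against control had 0 calls, 1 without Bc1, 1 with library weights, 1 without trend and robust moderation and 320 with the endothelial covariate. VB-127 against control had 1 call, 3 with library weights and 2 with only its 2 groups in the fit. It had 0 with a pseudocount of 0.1, without a filter, with a filter of 5 TPM, with the endothelial covariate and without control replicates 1 and 2 or 1, 2 and 4, and 0 to 1 with 1 library left out. The labels do not say whether the replicate numbers pair the libraries. Of 16 same-numbered pairs 1 had a correlation over 0.1, and 1 of 17 libraries correlated best with its own number. Low correlations cannot exclude a pairing. With the replicate number as a block, VB-127 against control had 0 calls and Des in vindeburnol against VB-127 was at 0.014. Over 17 libraries 23 of 36 member pairs passed, 11 on values minus the group mean, 4 without control replicates 1 and 2, and 10 to 28 with 1 library left out, 10 without control replicate 1 and 14 without control replicate 2. Depth is unknown, so low values such as those of Des and Abcc9 cannot be given a counting error.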
